A study of Homo sapiens with 15 samples.

Results

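The nuclear genes of the mitochondrial respiratory chain and ATP synthase were examined in MT-2, an established line of CD4+ T cells that carries HTLV-1, under ascorbic acid (AA) and interferon-α (IFN-α). Members were chosen by name: every array cluster with 1 gene symbol that begins with NDUFA, NDUFB, NDUFC, NDUFS, NDUFV, UQCR, ATP5, COX4I or COX5 to COX8, or that names a subunit of succinate dehydrogenase (SDH) or is CYC1, without the NDUFAF assembly factors and without pseudogenes. This gave 88 of the 28926 clusters of the array, and 81 of its 18377 named genes. Complex I had 37 clusters, complex II 5, complex III 8, complex IV 18 and complex V 19. The last cluster, NDUFV1-DT, is a noncoding transcript divergent to NDUFV1 that met the name rule. It is counted among the 88 members but in none of the complexes.

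The respiratory chain passes electrons from NADH (complex I) and succinate (complex II) through ubiquinone, complex III and cytochrome c to oxygen at complex IV. Complexes I, III and IV pump protons across the inner mitochondrial membrane, and complex V, the ATP synthase, uses the proton gradient to make ATP. Most subunits are encoded in the nucleus and are imported into mitochondria, where they are joined to a small number of subunits encoded by mitochondrial DNA. Activated and transformed T cells use both glycolysis and oxidative phosphorylation. The nuclear genes of the chain are known targets of the transcription factors NRF1, GABP (an ETS factor) and YY1.

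MT-2 cells were cultured for 48 hours with 10, 50 or 100 µg/ml AA (low-, intermediate- and high-dose AA), with 1000 IU/ml IFN-α2A (IFN-α), or untreated. Each of the 5 conditions had 3 arrays, 1 from each of 3 experiments, and a replicate number stands for the experiment. The cells are 1 line, so the replicates share their source, and the labels of experiments 2 and 3 share their date tag, so how far these 2 are independent is not known. The values are log2 signals of transcript clusters, and the precision is limited by having 3 arrays in each condition. A cluster was called at an unadjusted p under 0.001 in limma, the threshold in the study's methods.

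The defining markers of the line were read first. Of 9 clusters for markers of CD4 T cells, 2 lay above the upper quartile of all clusters on all 15 arrays. They were CD4 and IL2RA, the interleukin-2 receptor α chain. CD2, LCK, CD5 and CD28 had mean log2 levels of 7.45, 6.90, 6.05 and 5.43. The CD3 chains CD3D, CD3E and CD3G had only 5.78, 5.26 and 5.29. Of 12 clusters for markers of B cells, CD8 T or NK cells and monocytes, 5 (MS4A1, KLRD1, LYZ, FCGR3A and 1 cluster of CD8B) lay below the lower quartile on all 15 arrays. The other 7, for CD79A, CD79B, CD14, CSF1R, NCAM1, CD8A and CD8B, lay between the quartiles on all 15, with mean log2 levels of 6.09 to 7.03, and none lay above the upper quartile. Of 5 known IFN-α targets read as a check of treatment, 4 were called under IFN-α. MX1 was higher by 3.44, OAS1 by 3.54, IFI44L by 4.99 and ISG15 by 0.63 on the log2 scale. IFIT1 was higher by 0.32 and not called, and it lay below the lower quartile on all 15 arrays. High-dose AA replicate 3 stood apart from all other arrays: its mean correlation with them was 0.976, against 0.991 to 0.995 for the others. On that array the dimmest 25% of clusters lay 0.17 above and the brightest 25% 0.15 below their own means over the 15 arrays (medians), and the SD of its values was 2.02, against 2.13 on high-dose AA replicate 2. In whole cultures, less RNA of a gene per cell and fewer cells that make it cannot be told apart.

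As a group the members were bright. Of the 88 clusters, 64 (72.7%) belonged to the brightest 25% of the array by mean level, and 59 lay above the upper quartile on every one of the 15 arrays. Their median SD over all 15 arrays was 0.121 on the log2 scale, against 0.140 over all clusters. The steadiest was NDUFA10, an accessory subunit of complex I, with an SD of 0.048 over the 15 arrays. ATP5F1B, the catalytic β subunit of ATP synthase, had an SD of 0.055, and its values on all 15 arrays spanned 0.23.

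The forms of complex IV subunits that are known from other tissues lay in the lower or the middle range of the array. COX7B2 and COX6B2, forms known from testis, lay below the lower quartile on all 15 arrays, and COX8C, another testis form, did so on 12. COX4I2, a form known from lung, and COX6A2 and COX7A1, forms of heart and skeletal muscle, lay between the quartiles on every array. Their widespread partners COX4I1, COX6A1, COX6B1, COX7A2 and COX8A lay above the upper quartile on all 15 arrays, whereas COX7B, the partner of COX7B2, lay between the quartiles on all 15. Under high-dose AA the changes of these 6 tissue forms against untreated cells were -0.08 for COX6B2, 0.00 for COX4I2, 0.02 for COX7A1, 0.03 for COX7B2, 0.04 for COX6A2 and 0.12 for COX8C, none of them past an unadjusted p of 0.05, and that of COX8C was 0.03 and that of COX7A1 -0.05 without high-dose AA replicate 3. Probes differ in brightness, so these positions describe signal on the array and do not rank the genes. Of 30 subunits and isoforms listed for naming, 25 had a member cluster and 5 are not analysed here, and the subunits encoded by mitochondrial DNA are not analysed here.

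Many promoters of the members held short motifs of the factors named above. RefSeq (GRCh38.p14) windows that run from upstream of the gene start to just after it were at hand for 67 of the 80 coding genes. The NRF1 motif CGCATGCG, which reads the same on both strands, occurred in 11 genes (16.4%), against 3.28% of 15843 protein-coding genes. The ETS motif CCGGAAG, searched with its reverse complement CTTCCGG, occurred in 20 (29.9%, against 16.5% of all). The YY1 motif AAGATGGC, searched with GCCATCTT, occurred in 11 (16.4%, against 4.66% of all). At least 1 of the 3 motifs occurred in 36 genes (53.7%, against 22.3% of all). These matches are letters in a window and are not shown to be bound.

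Promoters are printed for the 3 members with the smallest p above untreated cells and the 1 below, under high-dose AA, and for ATP5PF, a peripheral stalk subunit of ATP synthase with 2 windows, of which the one printed holds all 3 motifs and the other lacks that of NRF1. Each runs 5′ to 3′ along the gene's strand, and capitals mark the motifs; the windows of NDUFB10 and COX7B hold none of these letters. The windows lie at chr10:103396426-103396725 (minus strand, ATP5MK), chr11:112086623-112086922 (plus strand, SDHD), chr16:1959288-1959587 (plus strand, NDUFB10), chrX:77899218-77899517 (plus strand, COX7B) and chr21:25735005-25735304 (minus strand, ATP5PF).
ATP5MK: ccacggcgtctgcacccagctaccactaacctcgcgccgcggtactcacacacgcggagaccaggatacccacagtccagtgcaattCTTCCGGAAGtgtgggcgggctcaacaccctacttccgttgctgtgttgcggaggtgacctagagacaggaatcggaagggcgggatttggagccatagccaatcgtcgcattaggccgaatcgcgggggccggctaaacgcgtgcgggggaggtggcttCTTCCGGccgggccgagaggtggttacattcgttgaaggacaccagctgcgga
SDHD: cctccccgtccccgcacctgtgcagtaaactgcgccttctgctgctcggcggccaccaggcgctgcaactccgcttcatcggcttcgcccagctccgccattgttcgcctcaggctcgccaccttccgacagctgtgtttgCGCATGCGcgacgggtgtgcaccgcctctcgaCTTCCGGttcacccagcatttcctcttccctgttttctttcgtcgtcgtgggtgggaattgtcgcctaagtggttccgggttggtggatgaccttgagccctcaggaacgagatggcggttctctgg
NDUFB10: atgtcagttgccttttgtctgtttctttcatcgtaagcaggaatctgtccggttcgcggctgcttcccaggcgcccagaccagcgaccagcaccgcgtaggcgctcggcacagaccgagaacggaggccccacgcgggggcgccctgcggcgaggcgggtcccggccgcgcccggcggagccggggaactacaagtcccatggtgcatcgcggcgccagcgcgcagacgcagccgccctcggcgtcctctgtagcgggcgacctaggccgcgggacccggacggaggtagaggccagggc
COX7B: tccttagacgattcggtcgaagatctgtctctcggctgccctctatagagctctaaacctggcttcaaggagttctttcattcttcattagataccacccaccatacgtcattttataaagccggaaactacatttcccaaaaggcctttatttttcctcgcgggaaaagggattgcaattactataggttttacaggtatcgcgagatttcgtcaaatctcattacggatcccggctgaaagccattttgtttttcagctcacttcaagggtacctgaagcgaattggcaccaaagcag
ATP5PF: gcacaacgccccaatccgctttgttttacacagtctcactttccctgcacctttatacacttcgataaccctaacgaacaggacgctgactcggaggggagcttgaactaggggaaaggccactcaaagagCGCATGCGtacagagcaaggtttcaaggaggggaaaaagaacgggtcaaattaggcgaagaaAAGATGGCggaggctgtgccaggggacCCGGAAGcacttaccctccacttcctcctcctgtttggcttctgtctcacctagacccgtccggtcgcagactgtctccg
The members with and without a motif had much the same change under high-dose AA: the median was 0.05 over the 11 genes with the NRF1 motif and 0.04 over the 56 without it, with no test made.

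The comparison of high-dose AA with untreated cells asks which transcripts differ after 48 hours of the dose. None of the 88 members was called, while 75 of all 28926 clusters were (0.259%). The smallest adjusted p of a member was 0.422. At an unadjusted p under 0.05, 6 members (6.82%) differed, 5 higher and 1 lower, against 11% of all clusters. The 5 include both clusters of NDUFB4, which carry identical values and are 1 measurement. The median change was 0.03 over members, 0.02 over all clusters and -0.04 over the brightest 25%. By complex, the medians were 0.03 in complex I, -0.02 in II, 0.00 in III, -0.01 in IV and 0.06 in V, where 14 of 19 clusters were above 0.

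The intervals show how large a difference the fit leaves room for. The 95% interval of limma lay within ±0.5 on the log2 scale, which is 1.41-fold, for 79 of the 88 members (89.8%), against 75.6% of all clusters. The 9 members whose interval reached further were NDUFS3, NDUFA1, NDUFV1-DT, UQCRH, COX5B, COX7B, COX7C, COX8A and ATP5F1D. The interval takes 1 spread pooled over the 5 conditions, in every comparison between conditions. For members whose high-dose arrays lay further apart, it may be narrower than those arrays alone would give. ATP5F1A of complex V, counted within ±0.5, had SDs of 0.44 under high-dose AA and 0.12 in untreated cells.

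**Figure D1:**
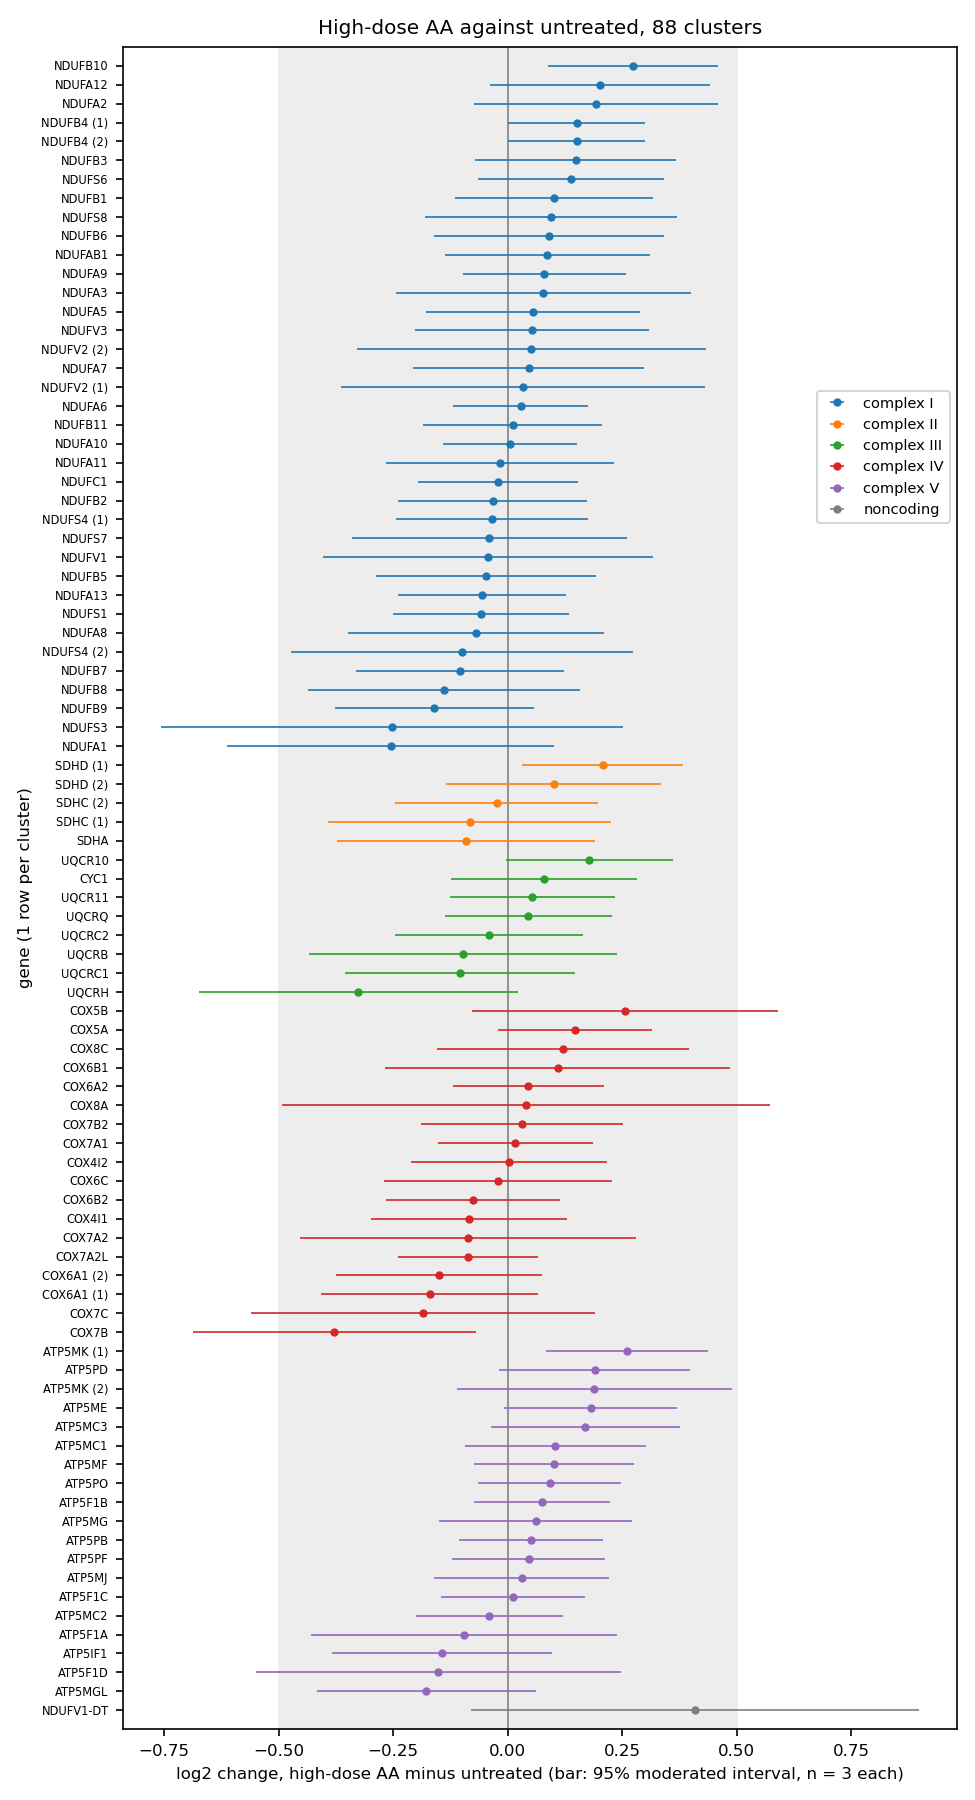
Log2 change of each of the 88 clusters, high-dose AA minus untreated (x axis; n = 3 each), by complex and ordered by size. Points are estimates, bars are 95% moderated intervals of limma, and the grey band is ±0.5. The bars of 79 clusters lie within the band. A number in brackets tells apart clusters of the same gene.

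ATP5MK, a small membrane subunit of ATP synthase that takes part in its dimerization, had the smallest p. Cluster 7936091 had log2 values of 10.24, 10.11 and 9.99 under high-dose AA (experiments 1 to 3), against 9.83, 9.88 and 9.86 in untreated cells. All 3 high-dose arrays lay above all 3 untreated ones, and the lowest of the high-dose arrays was from experiment 3. The change was 0.26 (SE 0.08; limma, unadjusted p = 0.0068, adjusted p = 0.42). Without high-dose AA replicate 3 it was 0.33, with an adjusted p of 0.68. The second cluster named ATP5MK had 11.26, 11.05 and 11.26 under high-dose AA, against 11.04, 10.91 and 11.05 in untreated cells, where the lowest high-dose and the highest untreated array overlap by less than 0.01. Its change was 0.19 (limma, unadjusted p = 0.20), and over the 15 arrays the clusters correlated with r = 0.6.

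NDUFB10, an accessory subunit in the membrane arm of complex I, had log2 values of 9.39, 9.38 and 9.71 under high-dose AA, against 9.21, 9.20 and 9.24 in untreated cells. The groups did not overlap, and the array of experiment 3 stood above the other two high-dose arrays. The change was 0.27 (SE 0.09; limma, unadjusted p = 0.0070, adjusted p = 0.42), and 0.17 without high-dose AA replicate 3.

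SDHD, which anchors complex II in the membrane, has 2 clusters that correlated over the 15 arrays with r = 0.552. Cluster 7899016 had 11.49, 11.44 and 11.34 under high-dose AA, against 11.25, 11.18 and 11.21 in untreated cells, a change of 0.21 (limma, unadjusted p = 0.0239, adjusted p = 0.44) without overlap. Cluster 7943853 had 9.80, 9.61 and 9.38, against 9.58, 9.36 and 9.55, where the groups overlap and the change was 0.10. Which of them reads the gene itself and which may read a near-identical copy is not known from the annotation used, so the value for SDHD is uncertain. In the order of cluster numbers, 7943853 stands between NDUFS8 and ATP5MG, whose promoter windows lie on chromosome 11, as does that of SDHD. Cluster 7899016 stands next to ATP5IF1, whose window lies on chromosome 1. Whether cluster numbers follow position in the genome was not tested.

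On the low side, COX7B, a small structural subunit of complex IV, had log2 values of 7.53, 7.36 and 7.59 under high-dose AA, against 8.00, 7.69 and 7.92 in untreated cells. All 3 high-dose arrays lay below all 3 untreated ones. The change was -0.38 (SE 0.14; limma, unadjusted p = 0.0198, adjusted p = 0.44) and -0.43 without high-dose AA replicate 3.

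UQCRH, the hinge protein of complex III that contacts cytochrome c1, had 6.27, 6.02 and 5.52 under high-dose AA, against 6.19, 6.40 and 6.19 in untreated cells. In experiment 1 the high-dose value was the higher one, and the low mean rests on experiment 3: the change was -0.33 with that array and -0.12 without it. ATP5MGL, a gene related to the one for subunit g of ATP synthase, had 6.22, 6.20 and 5.85, against 6.14, 6.41 and 6.25, and its change of -0.18 became -0.06 without the same array. Neither passed an unadjusted p of 0.05.

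**Figure D2:**
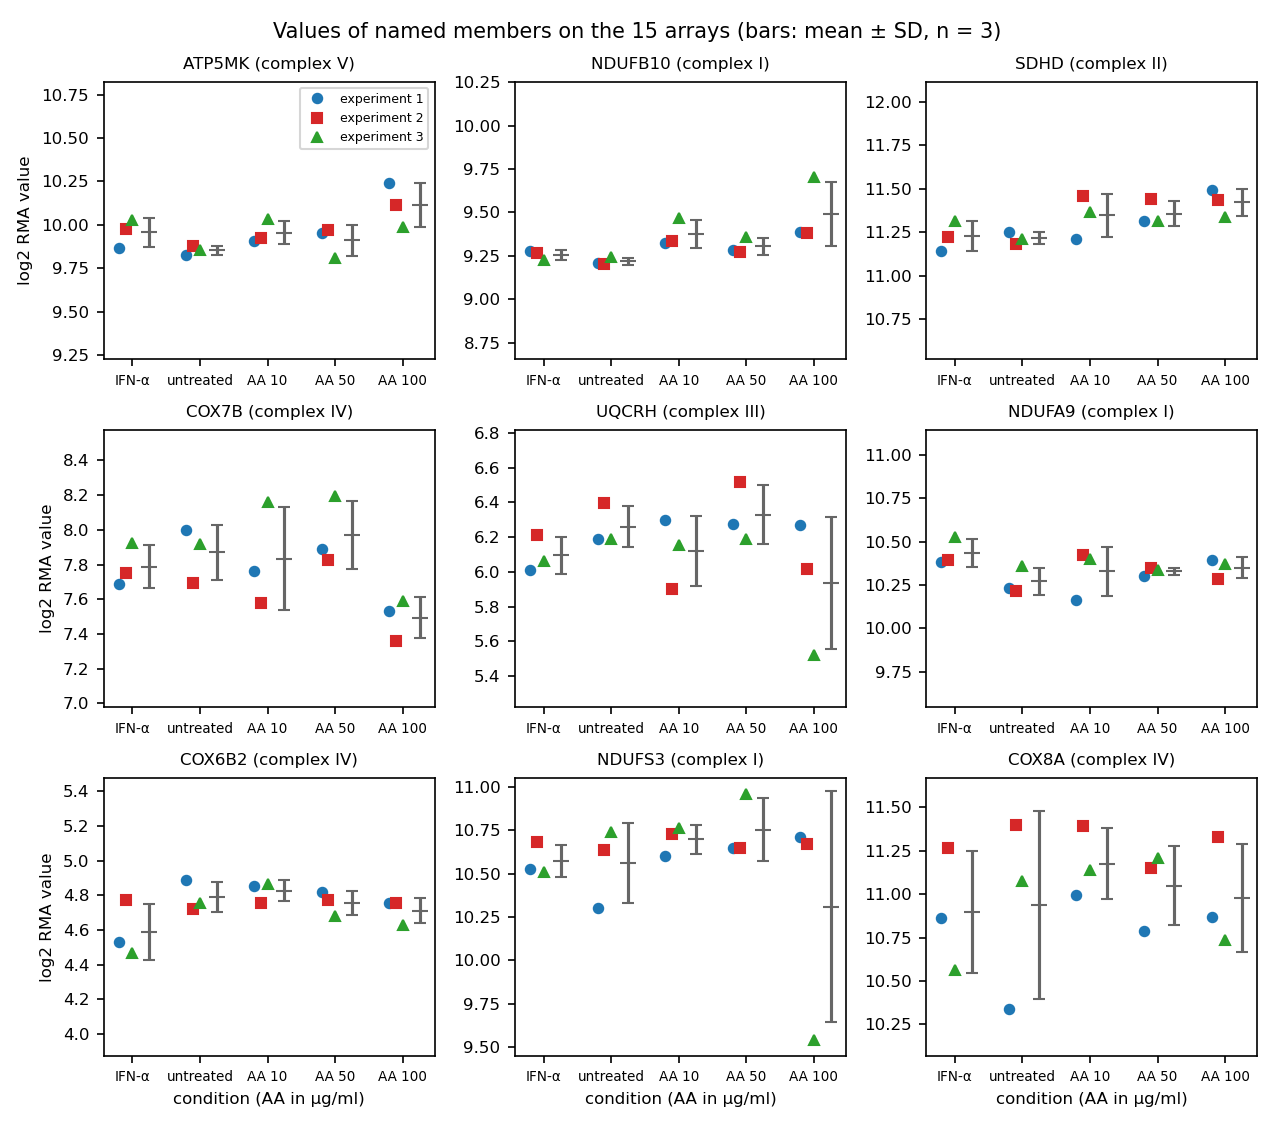
Log2 values (y axis, each panel spanning 1.6 units) of 9 named members on the 15 arrays. Columns are IFN-α, untreated cells and 10, 50 and 100 µg/ml AA, symbols are experiments, and bars are mean ± SD (n = 3). For ATP5MK, NDUFB10, SDHD and COX7B the high-dose arrays do not overlap the untreated ones. For ATP5MK and SDHD, which have 2 clusters, the first by cluster number is drawn.

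Values without overlap were no more frequent among members than on the array. Under high-dose AA, 9 of the 88 clusters (10.2%) had groups that did not overlap, against 10.5% of all clusters, 8 of them higher and 1 (COX7B) lower. Besides ATP5MK, NDUFB10 and SDHD, the higher ones were NDUFA12 and both clusters of NDUFB4, accessory subunits of complex I, UQCR10 of complex III and ATP5MF, subunit f of ATP synthase. NDUFB4 had 9.96, 9.91 and 10.10 under high-dose AA, against 9.86, 9.78 and 9.88 in untreated cells. Both of its clusters carry identical values on every array, so they are 1 measurement. NDUFA12 had 10.65, 10.72 and 11.00, against 10.57, 10.61 and 10.58.

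Of 12 catalytic, electron-carrying and other central subunits, 9 had their lowest value of all 15 arrays on high-dose AA replicate 3. ATP5F1A, the α subunit of ATP synthase, had 10.46, 10.41 and 9.68 under high-dose AA, against 10.31, 10.14 and 10.38 in untreated cells. UQCRC1, a core protein of complex III, had 9.09, 9.09 and 8.58, against 8.88, 9.07 and 9.13. SDHA, the flavoprotein that oxidizes succinate, had 10.58, 10.64 and 10.13, against 10.32, 10.65 and 10.65. In each of these the high-dose array of experiment 3 was the lowest of all 15, and in each the groups overlap. CYC1, cytochrome c1, had 10.99, 10.84 and 10.57, against 10.70, 10.66 and 10.80, again with the third array lowest. COX4I1, a regulatory subunit of complex IV, had 9.31, 9.17 and 8.87, against 9.22, 9.18 and 9.20. All of these groups overlap as well. ATP5F1B had 13.01, 12.97 and 12.86, against 12.78, 12.90 and 12.93, and its lowest array was untreated replicate 1. NDUFV1, which oxidizes NADH, had 10.23, 10.40 and 9.76, against 9.85, 10.36 and 10.31, and thus was higher than untreated cells in experiments 1 and 2 and lower in experiment 3. None of these subunits had groups apart. The changes of NDUFS1, the large iron-sulfur subunit of complex I, UQCRC2, the other core protein of complex III, and COX6C, a small subunit of complex IV, were -0.06, -0.04 and -0.02, and without high-dose AA replicate 3 they were 0.04, 0.09 and 0.04. COX5A, a subunit of complex IV that faces the matrix, had 11.94, 12.05 and 12.10, against 11.80, 11.96 and 11.90, with overlap and a change of 0.15. ATP5IF1, the inhibitor of the ATP synthase, and COX7A2L, a factor of respiratory supercomplexes, differed by -0.14 and -0.09, and by -0.01 and -0.06 without that array.

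In the 3 clusters with the widest range over the 15 arrays, the farthest value was on high-dose AA replicate 3 or untreated replicate 1. NDUFS3, a core subunit of the peripheral arm of complex I, had 10.71, 10.67 and 9.54 under high-dose AA, against 10.30, 10.64 and 10.74 in untreated cells. NDUFV1-DT had 5.67, 6.11 and 6.95, against 5.93, 5.86 and 5.71, so that it was lower in experiment 1 and higher in experiments 2 and 3. COX8A, the widespread form of subunit 8, had 10.87, 11.33 and 10.74, against 10.34, 11.40 and 11.07, where the low value is that of untreated replicate 1. Without high-dose AA replicate 3, the changes of NDUFS3 and NDUFV1-DT were 0.13 and 0.05, against -0.25 and 0.41 with it.

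Within the experiments the members as a whole did not move one way. Set against the untreated array that shares its experiment, the median change under high-dose AA was 0.14 in experiment 1, 0.03 in experiment 2 and -0.14 in experiment 3. Above 0 were 77 of the 88 clusters in experiment 1, 60 in experiment 2 and 32 in experiment 3. The brightest 25% of the array took the same order, with medians of 0.08, -0.01 and -0.19. In experiment 1 all 19 clusters of complex V and all 8 of complex III were above untreated cells, and in experiment 3 so were 9 of the 19 and 2 of the 8. The same sign in all 3 experiments was found for 19 members on the high side (21.6%, against 15% of all clusters) and for 2 on the low side (2.27%, against 11.4%).

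High-dose AA replicate 3 carried the lowest value of 36 members (40.9%), and also that of 44.5% of the brightest 25% and 23.4% of all clusters. High-dose AA replicate 1 carried the highest value of 23 members (26.1%), and also that of 21.6% of the brightest 25% and 11.3% of all clusters. Without replicate 3, 71 of the 88 members lay above untreated cells under high-dose AA (80.7%, against 57.9% of the brightest 25%), with a median of 0.08. By complex, the medians were then 0.09 in I, 0.12 in II, 0.08 in III, 0.03 in IV and 0.09 in V. None was called, against 38 of all clusters (0.131%). An unadjusted p of 0.05 was passed by 10 of the 88 members, a larger share than the 4.93% of all clusters (1425 of 28926). Of these 10, COX7B alone was lower than in untreated cells. That array's part in the low values of experiment 3 was not tested.

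**Figure D3:**
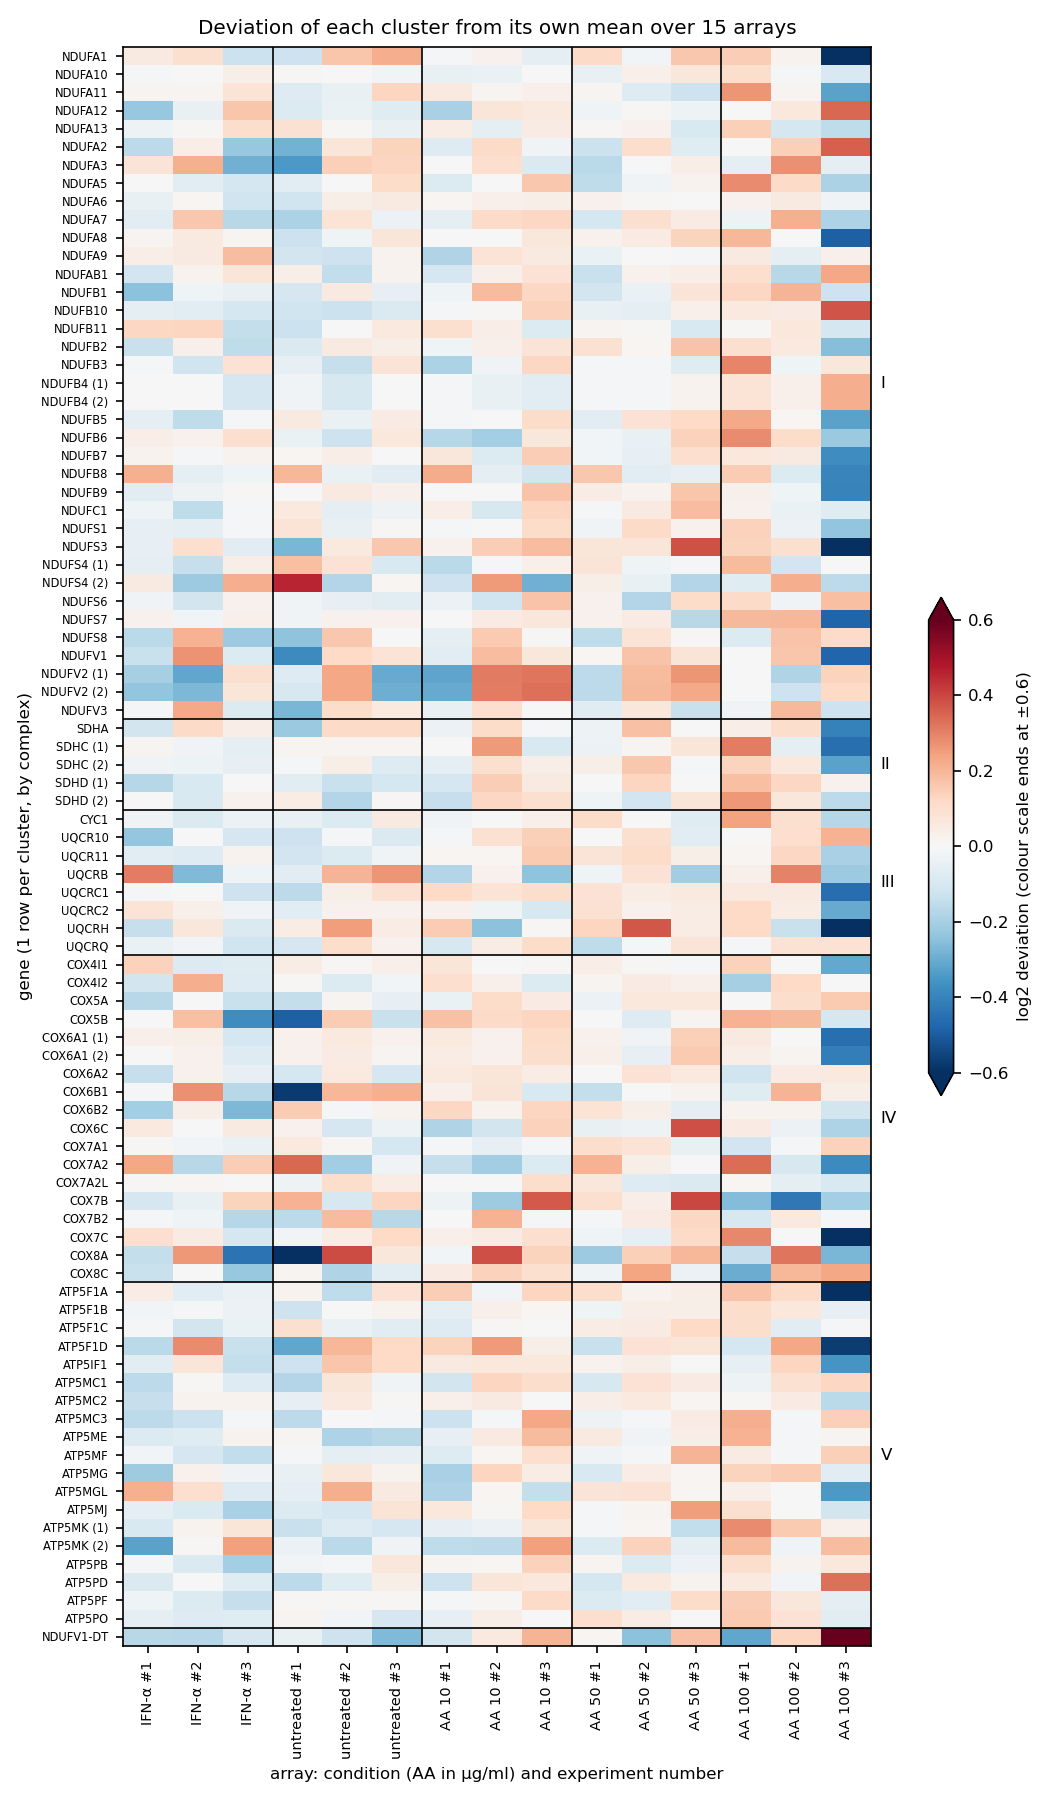
Deviation of each of the 88 clusters (rows, by complex) from its own mean on each of the 15 arrays (columns: IFN-α, untreated cells, then AA at 10, 50 and 100 µg/ml, experiments 1 to 3). Red is above and blue below the mean on a log2 scale that ends at ±0.6. The last column, high-dose AA replicate 3, holds the lowest value of 36 clusters.

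The array of untreated replicate 1 also bears on these values. It carried the lowest value of 12 members (13.6%), against 5.02% of all clusters. Among them were COX8A, COX6B1, COX5B and NDUFA3, the last an accessory subunit of complex I. COX6B1 had 10.10 on that array, against 10.87 and 10.89 on the other untreated arrays, and COX5B had 10.93, against 11.58 and 11.29. Each treated array of experiment 1 is set against that array in the values by experiment.

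**Figure D4:**
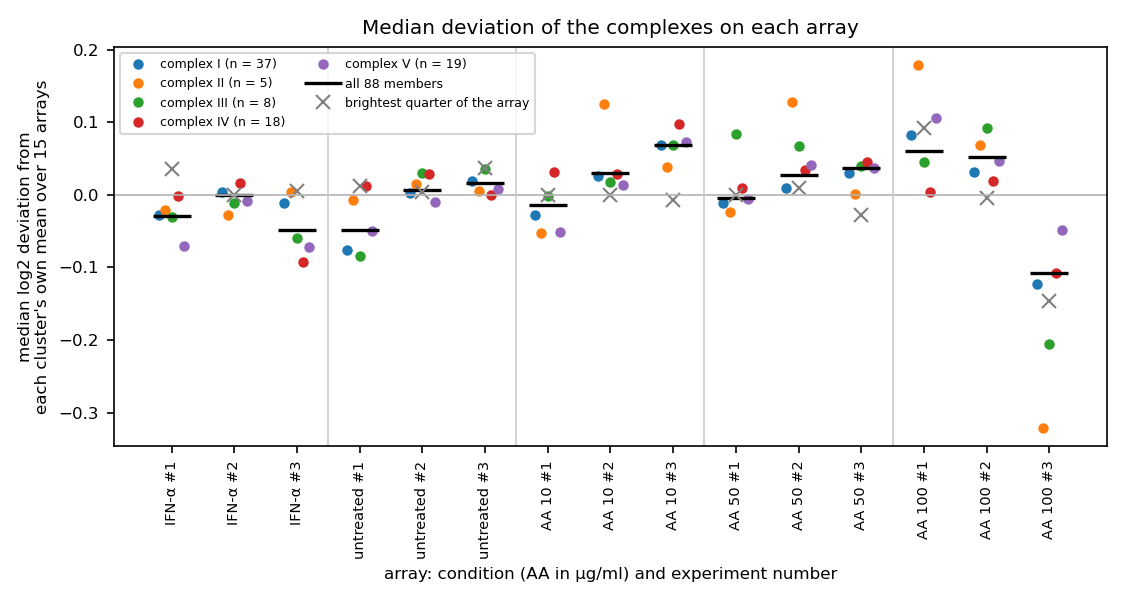
Median log2 deviation from each cluster's own mean over the 15 arrays, for complexes I to V (coloured points), all 88 members (black bars) and the brightest 25% of the array (grey crosses), by array. On high-dose AA replicate 3 the median of all members is -0.11 and that of the brightest 25% is -0.15.

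Under intermediate-dose AA no member was called, while 9 of all clusters were (0.0311%), and no member passed an unadjusted p of 0.05, which 2.34% of all clusters did. Above untreated cells were 64 of the 88 members, with a median of 0.04 against 0.01 over all clusters and -0.03 over the brightest 25%. The medians by experiment were 0.05, 0.02 and 0.03. Groups did not overlap for 5 members (5.68%, against 10.4% of all clusters), namely SDHD (cluster 7899016), NDUFA12, NDUFB10, UQCR11 and COX4I2. The other SDHD cluster had 9.52, 9.42 and 9.61, against 9.58, 9.36 and 9.55, with overlap. UQCR11, a small subunit of complex III, had 8.37, 8.40 and 8.33 under intermediate-dose AA, against 8.18, 8.21 and 8.27 in untreated cells, and its change of 0.15 had the smallest p in this comparison (0.10 unadjusted). On the low side stood UQCRB, a ubiquinone-binding subunit of complex III, with 6.19, 6.30 and 6.01, against 6.15, 6.42 and 6.48, where the groups overlap. COX7A2L differed by -0.07 and the second cluster of NDUFS4, an accessory subunit of complex I, by -0.16. This NDUFS4 cluster lay below the lower quartile on 14 of the 15 arrays. The first NDUFS4 cluster, above the upper quartile on all 15, had means of 8.55 under intermediate-dose AA and 8.60 in untreated cells. The intervals of 80 members lay within ±0.5.

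Under low-dose AA no member was called either, while 6 of all clusters were (0.0207%), and no member passed an unadjusted p of 0.05, which 2.54% of all clusters did. Above untreated cells were 68 of the 88 members, with a median of 0.04 against 0.01 over all clusters and -0.02 over the brightest 25%, and the medians by experiment were 0.03, 0.03 and 0.06. The untreated arrays are shared by the comparisons of all doses, so that these counts are not separate evidence. ATP5ME, subunit e of ATP synthase, had the smallest p, with 9.14, 9.24 and 9.38 under low-dose AA, against 9.21, 9.00 and 9.02 in untreated cells. In experiment 1 the untreated value was the higher one, and the change was 0.18 (unadjusted p = 0.065). COX5B had the largest change, 0.30, which was 0.13 without untreated replicate 1. Groups did not overlap for ATP5MK (cluster 7936091), COX8C, NDUFB10 and UQCR11, which is 4 members (4.55%, against 11.6% of all clusters). UQCRB was lower by 0.27 on average and ATP5MGL by 0.18, both short of an unadjusted p of 0.05.

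Along the dose, a line was fitted to the 12 arrays without IFN-α. No member was called on the slope, while 71 of all clusters were (0.245%), and 6 members passed an unadjusted p of 0.05, against 11.5% of all clusters. The largest slope upward among these was that of ATP5MK, 0.21 per 100 µg/ml (unadjusted p = 0.015, adjusted p = 0.41). Its means ± SD (n = 3) were 9.85 ± 0.03 in untreated cells, 9.95 ± 0.07 at 10, 9.91 ± 0.09 at 50 and 10.11 ± 0.13 at 100 µg/ml. COX7B had a slope of -0.33, with means of 7.87 ± 0.16, 7.83 ± 0.30, 7.97 ± 0.20 and 7.49 ± 0.12 in the same order, so that only the highest dose stood apart from untreated cells. NDUFB10 had 9.22 ± 0.02, 9.38 ± 0.08, 9.30 ± 0.05 and 9.49 ± 0.19, with the intermediate dose below the low one. Means that were higher at each step of the dose were found for 8 members (9.09%, against 11% of all clusters). Among them were SDHD (cluster 7899016), NDUFA12, CYC1 and ATP5F1B. The other SDHD cluster had a lower mean at the intermediate dose than at the low one. Means that were lower at each step were found for 3 members (3.41%, against 8.11%), which are NDUFB8, NDUFA13 and COX7A2L. On the low side, the first cluster of COX6A1 had a slope of -0.18 and NDUFB9, an accessory subunit of complex I, one of -0.16 per 100 µg/ml, and without high-dose AA replicate 3 both were -0.02. Without that array the slope was 0.26 for ATP5MK, -0.33 for COX7B and 0.10 for NDUFB10 and for NDUFB4, which then did not pass an unadjusted p of 0.05, nor did COX7B.

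Under IFN-α, compared with untreated cells, none of the 88 members was called, while 81 of all clusters were (0.28%). The median change was -0.02 over members and -0.01 both over all clusters and over the brightest 25%, and 37 of the 88 members were above 0. The interval lay within ±0.5 for 85 members (96.6%, against 88.6% of all clusters). Of the members, COX6B2 alone had an unadjusted p under 0.05 (1.39% of all clusters did), with a change of -0.20 (limma, unadjusted p = 0.041, adjusted p = 1). It had 4.53, 4.77 and 4.47 under IFN-α, against 4.89, 4.72 and 4.76 in untreated cells, with overlap through the array of experiment 2 and with every value below the lower quartile of its array. NDUFA9, an accessory subunit of complex I next to the site of ubiquinone reduction, had 10.38, 10.40 and 10.53, against 10.23, 10.22 and 10.36, without overlap and with a change of 0.16. ATP5PF had 8.42, 8.36 and 8.31, against 8.45 on each untreated array, a change of -0.09. NDUFA9 and ATP5PF were the 2 members of 88 (2.27%) whose groups did not overlap under IFN-α, against 5.55% of all clusters. ATP5PB, a subunit of the same stalk, differed by -0.11, and the first cluster of NDUFS4 by -0.11.

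In high-dose AA set against IFN-α no member was called, while 188 of all clusters were (0.65%). At an unadjusted p under 0.05, 7 members were higher under high-dose AA and none was lower, which is 7.95% of members and 7.95% of all clusters on the high side (12.1% of all clusters in either direction). They were NDUFB10, UQCR10, SDHD (cluster 7899016), COX5A, ATP5PB, the accessory subunit NDUFA2 of complex I and ATP5MC3, which encodes subunit c of the rotor ring. Their changes were 0.16 to 0.28, with adjusted p values in limma of 0.34 to 0.40. UQCR10 had 9.62, 9.72 and 9.83 under high-dose AA, against 9.39, 9.62 and 9.52 under IFN-α. The high-dose arrays lay above the IFN-α arrays, the lowest of them by less than 0.01. ATP5PB, subunit b of the peripheral stalk, had 8.15, 8.07 and 8.11, against 8.04, 7.96 and 7.84, also without overlap. Groups did not overlap for 8 members on the high side and 1 on the low side (10.2%, against 11.2% of all clusters). The 8 include both clusters of NDUFB4, which are 1 measurement. The low one was COX7B, which had the largest change downward of the members, -0.29. It had 7.53, 7.36 and 7.59 under high-dose AA, against 7.69, 7.75 and 7.93 under IFN-α. The median was 0.13 in complex V, with 14 of 19 clusters above 0, 0.03 in complexes I and III and -0.01 in II and IV. Without high-dose AA replicate 3 the medians were 0.09 in complex I, 0.14 in II, 0.11 in III, 0.05 in IV and 0.11 in V, 77 of the 88 members were above 0, and none was called.

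Genes around the chain were counted in the same fits. None of 42 clusters of assembly factors was called under high-dose AA (median -0.05), and the one with the smallest p was COA3, an assembly factor of complex IV, with a change of 0.20 (unadjusted p = 0.0098). In high-dose AA against IFN-α, COA3 was the 1 assembly factor cluster called, with a change of 0.31 (limma, adjusted p = 0.078). None of 16 clusters of biogenesis regulators and none of 16 for cytochrome c and the citrate cycle was called in any comparison. Of 76 clusters of mitochondrial ribosomal proteins none was called. Under high-dose AA 53 were above untreated cells (69.7%, against 54.4% of all clusters and 38.4% of the brightest 25%). By experiment 69, 57 and 27 were above untreated cells in experiments 1, 2 and 3. MRPL35, a protein of the large subunit, came nearest to the threshold with a change of 0.39 (limma, unadjusted p = 0.0012, adjusted p = 0.385). In the proteasome, 3 of 42 clusters were called under IFN-α, all 3 of them PSMB9, an interferon-inducible subunit of the immunoproteasome, with identical values and a change of 0.61, so that they are 1 measurement. The cytosolic ribosomal proteins had 1 of 85 clusters called under high-dose AA, RPS24, a protein of the small subunit, with a change of 0.43 (limma, adjusted p = 0.35), and their median was -0.05. PSMB9, RPS24 and the call of COA3 were singled out after their values were seen.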

How the data were processed

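RNA of MT-2 cells was hybridised to 15 Affymetrix Human Gene 1.0 ST arrays, 5 conditions with 3 arrays each. The authors made the deposited values with the Robust Multichip Average (RMA), which corrects background, equalises the arrays by quantiles and summarises probes, and deposited them on the log2 scale. No scanner file was used here, and RMA makes differences in overall signal between arrays invisible. Arrays give no read depth, and the number of arrays limits the precision.

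Clusters were named from the annotation of the array platform: 19310 of 28926 had 1 symbol, 1752 had several and 7864 had none. It gives no positions, so a cluster may read a near-identical copy of its gene. All 88 member clusters had a gene ID in RefSeq.

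Values were fitted with limma 3.58.1 in R 4.3.3 (statmod 1.5.0) on all 15 arrays in 1 model without a block, with moderated two-sided tests (10 residual and 3.91 prior degrees of freedom) and Benjamini-Hochberg adjustment over all 28926 clusters; the slope on dose used the 12 arrays without IFN-α. A difference was called at an unadjusted p under 0.001. The fit was tested on simulated data. Lists were described by counts and medians beside all clusters and the brightest 25%. Members and lists were chosen with earlier results of these data known. Named members were the 3 smallest p in each direction of each comparison with untreated cells and of the slope, a list of core subunits, tissue forms and partners, and the 3 largest ranges over the arrays; other genes named for an order, an overlap or a shift were chosen after their values were seen. At most 4 genes of each other list were eligible.

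Replicate numbers come from a tag shared by the titles of 5 arrays. Deviations of same-numbered arrays from their group means correlated with a median of 0.28 (30 pairs, -0.19 to 0.54), against -0.17 for arrays of different number (60 pairs). Deviations from a group mean cancel within the group, which ties the second value to the first, so it is not a separate contrast. With the replicate as a block, 0 of the 88 members were called, as without it.

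Alternatives were the block (fixed or random), a filter on dim clusters, trended eBayes, array weights, cyclic loess, other thresholds, 1 value per gene, the compared arrays alone and leaving out arrays or experiments. Figures were drawn with matplotlib 3.10.9 (Python 3.11.15, pandas 2.3.3).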

Additional observations from a re-analysis of the deposited data

How the results depend on the processing

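No member was called in any of the 6 comparisons when an array or an experiment was left out (0 to 0 of 88), with the replicate as a fixed or random block (0), or without the dimmest 25% of clusters. Array weights called 4 members under high-dose AA against untreated cells, together with 7.22% of all clusters. They were SDHD (cluster 7899016, 0.23), ATP5MK (cluster 7936091, 0.25), COX8C (0.30) and COX7B (-0.47). Array weights called 2 members in high-dose AA against IFN-α, COX8C (0.33) and NDUFB1 (0.28), together with 7.43% of all clusters. At an adjusted p under 0.05 array weights gave 13 members (14.8%, against 18% of all clusters) in the first comparison and 17 (19.3%, against 19.4%) in the second. The weight of high-dose AA replicate 2 was then 18.7, while that of replicate 1 was 0.237 and that of replicate 3 was 0.106. The high-dose side of these counts thus rests almost wholly on replicate 2. Cyclic loess called 1 member under high-dose AA, ATP5MK, with a change of 0.31 (limma, unadjusted p = 0.00062, adjusted p = 0.34), and 0.28% of all clusters.

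The median change of members under high-dose AA was 0.03, and it ran from -0.03 without experiment 1 to 0.10 without experiment 3, so that its direction is not settled. The median under intermediate-dose AA was 0.04, with 0.029 under array weights, 0.063 under cyclic loess and a range of 0.026 to 0.055 when arrays or experiments were left out. The median under low-dose AA ran from 0.019 to 0.060. The slope ran from -0.04 to 0.09 per 100 µg/ml. The median ran from -0.03 to -0.005 under IFN-α and from 0.01 to 0.09 in high-dose AA against IFN-α. The second cluster of NDUFS4, dim on most arrays, turned under intermediate-dose AA from -0.16 to 0.02 without untreated replicate 1, with -0.30 as the lowest value. The cause was not tested. Fits without high-dose AA replicate 3 for the doses below it and for IFN-α were added after the data were seen, and gave the same calls. The arrays carry no signal over background here, so dim forms such as COX7B2 cannot be called absent.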

Other observations

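In 9 clusters a member name stood beside other symbols, and these were left out of every count, as were 2 pseudogene clusters. None of them was called. The cluster shared by ZNF789, PTCD1 and the read-through ATP5MF-PTCD1 came nearest, with a change of -0.29 under high-dose AA, -0.32 under intermediate-dose AA and -0.30 under low-dose AA, each against untreated cells and each past an unadjusted p of 0.005 in limma, and 0.03 under IFN-α. Its value cannot be given to 1 gene, and ATP5MF itself was higher by 0.10 under high-dose AA.

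Clusters of the same gene differed in how closely they moved together over the 15 arrays. Pearson's r was 0.995 for NDUFV2 and 0.993 for COX6A1, against 0.248 for NDUFS4, whose second cluster lay below the lower quartile on 14 of the 15 arrays.

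Exact repeats of a value on different arrays occurred in 25 of the 88 members (28.4%) and in 38.3% of all clusters. In 1 member, a cluster of SDHC, the membrane anchor that pairs with SDHD, all 3 untreated arrays held the same value.

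The median range of the 5 condition means was 0.152 over members, and that of the 3 experiment means was 0.124. A condition mean is over 3 arrays and an experiment mean over 5. More means and fewer arrays in each widen a range, so these sizes do not weigh conditions against experiments. The range of experiment means was the larger in 29 members (33%), against 33% of all clusters and 47.9% of the brightest 25%. These counts compare the sets of clusters only.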
